A study of Vitis vinifera with 66 samples.

Results

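The genes described here are those of the grapevine berry color locus on chromosome 2, known as the MYBA locus (VIT_02s0033g00380, VIT_02s0033g00390, VIT_02s0033g00410 and VIT_02s0033g00450), with 3 later genes of the anthocyanin pathway, UFGT (VIT_16s0039g02230), GST4 (VIT_04s0079g00690) and AOMT (VIT_01s0003g03510). The 7 genes were listed by ID for their known role, and the list was chosen by an earlier look at these data as well: VIT_02s0033g00380 stood among the largest changes between flooded and control berries at T1. Of the 7 listed genes, 6 have a row among the 29688 gene rows of the count table, and AOMT was not analysed here. The 4 locus genes, abbreviated below as g00380, g00390, g00410 and g00450, passed the filter on low counts (a level of 0.5 CPM or more in 3 or more libraries, where CPM scales a count to the size of its library), as did 19625 gene rows in all. UFGT and GST4 did not pass it and are given by their counts.

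RNA of whole berries of the white cultivar Sauvignon Blanc was sequenced in 66 libraries, 3 for each of 22 groups. All vines were potted and grown in tunnels. FH vines were flooded in spring at budbreak and met drought and then a heat wave in summer. H vines met the summer stresses alone, F vines were flooded in spring alone, and C vines had neither. For the drought, water was cut to 30% of field capacity, and for the heat wave the tunnel was set 5 °C warmer. Berries were taken at T0, before the water was cut, and 9 days (T1, drought before the heat), 13 days (T2, within the heat wave), 15 days (T3, its end), 24 days (T4, recovery) and 28 days later (T5, harvest). F and C were sequenced at all 6 times and FH and H from T1 on. The summer stress coincides with the tunnel, so the effects of the stress and of the tunnel cannot be told apart. The libraries held 15927671 to 24150978 counts (median 19168492), and replicates are berries of different vines.

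Anthocyanins are the red and blue pigments of grape skin, made from veraison on, the onset of ripening. MYBA proteins are R2R3-MYB transcription factors that switch on the last steps of the pathway in colored grapes. White cultivars carry disrupted alleles at the locus, known to be a retrotransposon in the promoter of one MYBA gene and coding mutations in its neighbour. UFGT glucosylates anthocyanidins, which makes them stable pigments, GST4 is a glutathione S-transferase needed to bring anthocyanins into the vacuole, and AOMT methylates them. Reads of this white cultivar were aligned to the genome of Pinot Noir, a black grape, and only reads with a single match were counted. The locus holds near-identical copies, so the split of reads between its members is uncertain.

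All 4 locus genes were at or near 0 at T0, differed widely between vines at T1, and were present in every library from T2 on. At T0, g00380 and g00410 had 0 counts in all 6 libraries, and g00390 had 1 count in 1 F library and 0 in the others. g00450 had 5 counts in each F library at T0, and 13, 4 and 4 counts in the C libraries. From T2 to T5, the lowest of the 48 libraries held 2.23 CPM of g00380, 10.4 CPM of g00390, 0.598 CPM of g00410 and 11.8 CPM of g00450. The highest held 38.0, 154, 7.56 and 208 CPM of these genes in the same order, 12.6 to 17.6 times the lowest. CPM are not corrected for gene length, so levels are compared here between groups and not between genes. In RNA of whole berries, fewer cells of a type and less RNA per cell cannot be told apart.

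**Figure D1:**
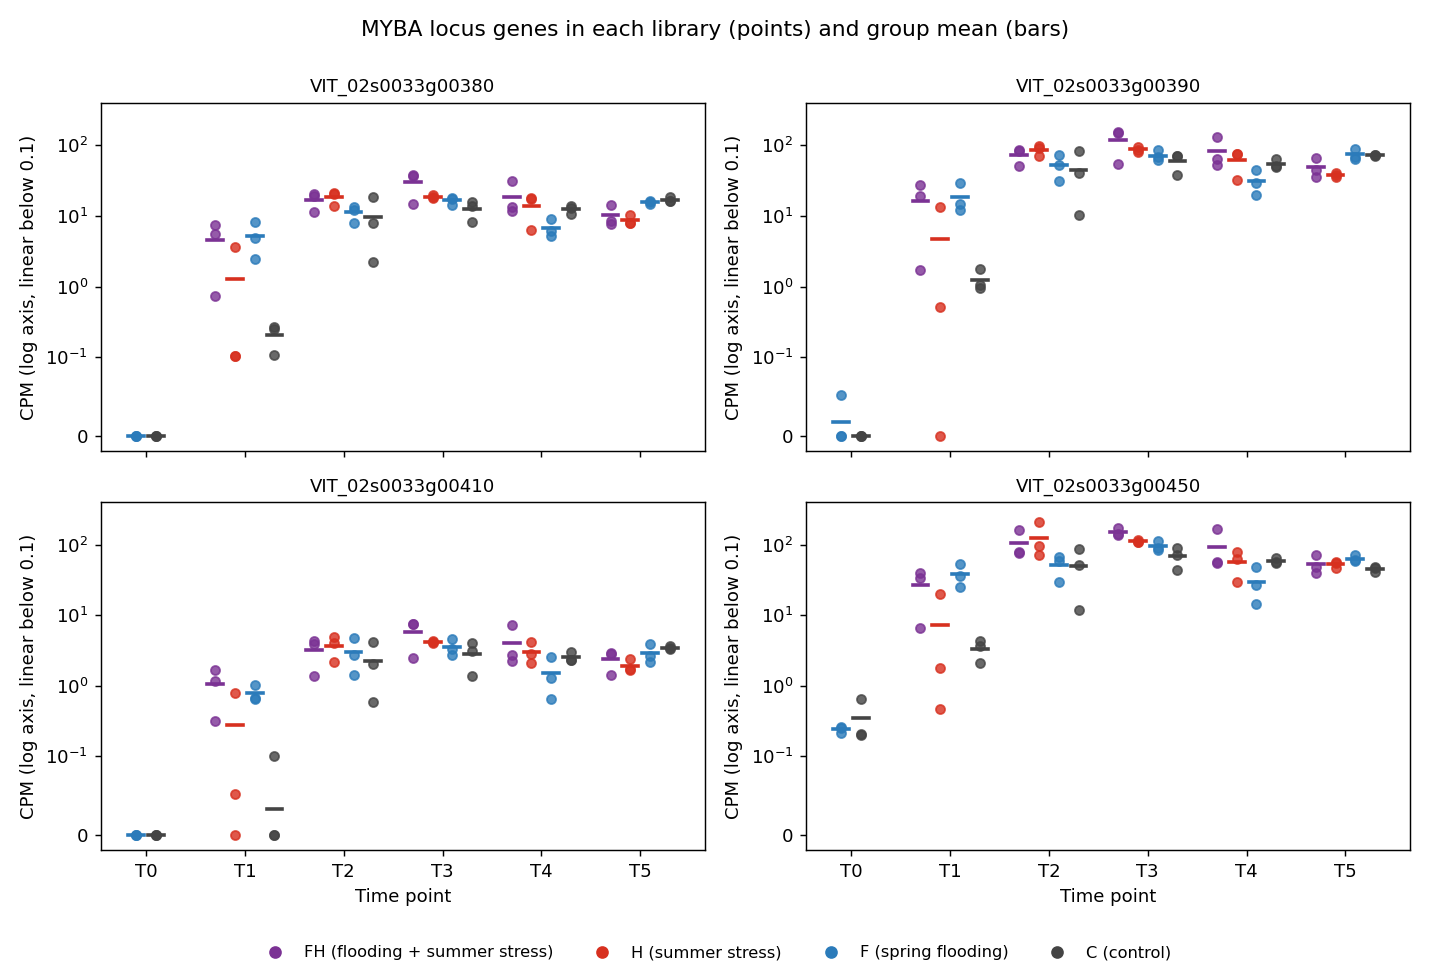
Levels of the 4 MYBA locus genes in CPM (log axis, linear below 0.1) at T0 to T5, with points for libraries and bars for means of 3. All 4 genes sat at or near 0 at T0, spread over a wide range at T1 and lay above 0.59 CPM in every library from T2 on.

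The rise over time was far larger than the spread between libraries. g00390 had 71.7, 72.9 and 74.4 CPM in the C libraries of T5, against 0 counts in all C libraries of T0. With a floor of 3 counts per library, T5 was at least 478-fold higher in g00390, at least 112-fold in g00380 and at least 22.8-fold in g00410. g00450, which had 21 counts in all in C at T0, was 127-fold higher at T5 (95% counting interval 83.0 to 206), with 13 of the 21 counts in replicate 1. In F, T5 was at least 107-fold above T0 in g00380 and at least 20.0-fold in g00410, and 263-fold in g00450 (159 to 470). For g00390 in F, T0 rested on 1 count, and the ratio of 4630 had a counting interval of 831 to 183000. Counting intervals and floors cover counting error only.

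In edgeR's quasi-likelihood test with Benjamini-Hochberg adjustment over all 19625 genes, a gene was called with an adjusted p under 0.05 and a fold of at least 1.5. T5 over T0 called all 4 locus genes in C, where 56.6% of all genes were called, with adjusted p of 1.30e-09 for g00390 and 7.98e-08 for g00410 as the lowest and highest. It called all 4 in F as well, where 53.8% of all genes were called. The calls of the locus thus stand in a contrast in which most genes of the berry changed. No T0 library held more than 0.0517 CPM of g00390 or any count of g00380 and g00410. These genes thus passed the filter only through later libraries, and a rise from T0 was the only direction left to them. The genes were also listed with earlier results of these data known, so the calls against T0 describe the rise and do not test it.

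The step between T0 and T1 called all 4 genes in F and 2 of them in C. It shares the F and C libraries of T1 with the contrast in view when the genes were listed. In F, T1 over T0 called 39.6% of all genes, and the locus genes had adjusted p of 2.53e-08 for g00450 and 1.32e-04 for g00410. In C, g00390 had 35, 20 and 18 counts at T1 and 0 in all libraries at T0, and g00450 had 73, 40 and 81 counts at T1, against 13, 4 and 4 at T0. Both rose by this test (adjusted p = 0.0134 and 0.00888), where 16.5% of all genes were called. For VIT_02s0033g00450 the log2 change was 3.22 (SE 0.91), and 4.0 without C replicate 1 of T0. g00380 had 5, 2 and 5 counts at T1 in C (adjusted p = 0.13) and g00410 had 2, 0 and 0 counts (adjusted p = 0.399). Both calls in C were lost when only the libraries of T0 and T1 were fitted (adjusted p = 0.0916 for g00390 and 0.0518 for g00450).

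The step between T1 and T2 called all 4 genes in C and none in F. In C, g00450 had 11.8, 87.4 and 51.0 CPM at T2, against 3.67, 2.12 and 4.29 CPM at T1. All 4 genes rose in C, by 3.89 to 5.79 on the log2 scale (adjusted p = 3.92e-05 for g00380, 5.90e-05 for g00390, 9.27e-05 for g00410 and 1.45e-04 for g00450), where 19.2% of all genes were called. Without C replicate 2 of T2, the highest there, the rise was 4.56 for VIT_02s0033g00380, 4.34 for VIT_02s0033g00390, 5.01 for VIT_02s0033g00410 and 3.22 for VIT_02s0033g00450, and without C replicate 1 of T1 it was 8.46 for VIT_02s0033g00410, with every gene still called. In F, g00450 had 29.8, 67.7 and 58.3 CPM at T2, against 36.5, 52.3 and 25.1 CPM at T1. None of the 4 genes was called there by edgeR (log2 change 0.45 to 1.91, 2 of 4 at an unadjusted p under 0.05), where 2.67% of all genes were called. DESeq2 called g00410 in this step (adjusted p = 0.0408). The difference between these steps of C and F was not tested. The steps to and from T1 use the F and C libraries of the contrast that was in view when the genes were listed, and are not independent of it. Calls that differ between C and F in these steps in part restate that contrast, and their p are given as a description.

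In the stressed vines, which have no T0 libraries, T5 was set against T1. All 4 genes rose in H, by 2.79 (SE 0.70) for g00380, 3.04 (SE 0.75) for g00390, 2.80 (SE 0.75) for g00410 and 2.85 (SE 0.67) for g00450 on the log2 scale, where 42.9% of all genes were called. The adjusted p lay between 4.99e-04 and 0.00207. H replicate 3 of T1, which was high beside the other H libraries, held these values down: without it the rise was 6.31 for VIT_02s0033g00380, 7.17 for VIT_02s0033g00390, 5.90 for VIT_02s0033g00410 and 5.55 for VIT_02s0033g00450, and without replicate 1 it was 2.21 for VIT_02s0033g00410. All 4 stayed called. In FH, edgeR and DESeq2 called none of the 4 genes (log2 change 0.99 to 1.59, 1 of 4 at an unadjusted p under 0.05), where 38.7% of all genes were called. The one under it was g00390 (adjusted p = 0.0578), which passed 0.05 when single libraries were left out, namely replicate 1 of FH at T1, replicate 1, 2 or 3 of H at T1, or replicate 1 of C at T2.

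In the order of the 22 group means, g00390 ran between 120 ± 55.7 CPM in FH at T3 (SD, n = 3) and 0 CPM in C at T0. H at T3 (87.7 ± 7.05 CPM) and H at T2 (87.1 ± 14.3 CPM) followed the highest group. At the low end, F (18.8 ± 9.21 CPM), FH (16.3 ± 13.3 CPM), H (4.69 ± 7.68 CPM) and C (1.26 ± 0.438 CPM) of T1 stood together above T0. The libraries of groups next to each other overlapped in 20 of the 21 steps of this order, the exception being that between C of T1 and F of T0. The same was found for g00380 and g00450, where the step without overlap was between C of T1 and C of T0, and in g00410 all 21 steps overlapped. T0 and T1 thus made the low end for g00390, and groups of different times and treatments were mixed above it. Neighbours were set by their means, so overlap between them is likely for any gene. It does not show that groups further apart are alike, and its share over all genes was not computed.

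At T1 the locus genes were high in all F libraries and low in all C libraries. g00380 had 4.86, 8.29 and 2.44 CPM in F, against 0.251, 0.106 and 0.265 CPM in C. g00390 had 14.8, 29.3 and 12.3 CPM in F, against 1.76, 1.06 and 0.953 CPM in C. g00410 had 12, 18 and 12 counts in F, against 2, 0 and 0 counts in C. In none of the 4 genes did F overlap with C, as in 45.9% of all tested genes. The fitted change of F over C was 4.60 (SE 0.87) for g00380, 3.89 (SE 0.83) for g00390, 4.27 (SE 1.08) for g00410 and 3.49 (SE 0.70) for g00450 on the log2 scale, and without C replicate 1 it was 6.94 for VIT_02s0033g00410. This contrast was in view when the genes were listed, so these values are a description without a test, and the 14.6% of all genes called there is given for scale only.

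The stressed groups were divided within themselves at T1. g00390 had 27.6, 1.70 and 19.5 CPM in FH, and 0.520, 0 and 13.6 CPM in H. g00450 had 40.0, 6.68 and 33.7 CPM in FH, and 1.77, 0.467 and 19.9 CPM in H. FH replicate 2 was thus low beside the other FH libraries, and H replicate 3 was high beside the other H libraries, in all 4 genes. FH over H was positive in all 4 genes, at 1.80 to 1.93 on the log2 scale, but edgeR and DESeq2 called none (adjusted p between 0.123 and 0.183, 4 of 4 at an unadjusted p under 0.05), where 0.698% of all genes were called. Without H replicate 3 all 4 genes were called, by 4.58 to 5.93 on the log2 scale, and without FH replicate 2 g00380 (2.36) and g00450 (2.33) were. The share of all genes called with these libraries left out was not computed, so these calls may not be particular to the locus.

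H over C at T1 rested on the same library. The fitted change was 2.56 (SE 0.94) for g00380, 1.88 (SE 0.83) for g00390, 2.76 (SE 1.23) for g00410 and 1.12 (SE 0.68) for g00450. edgeR called none of them (adjusted p of at least 0.264, 3 of 4 at an unadjusted p under 0.05), where 0.408% of all genes were called, and DESeq2 called g00380 (adjusted p = 0.0483). Without H replicate 3 the change turned negative in all 4 genes, at -0.96 for VIT_02s0033g00380, -2.25 for VIT_02s0033g00390, -0.34 for VIT_02s0033g00410 and -1.58 for VIT_02s0033g00450. FH over F at T1 called none of the 4 by either tool (log2 change -0.50 to 0.42, 0 of 4 at an unadjusted p under 0.05), where 0.0051% of all genes were called. H over C and FH over F at T1 use the C or F libraries of the contrast in view when the genes were listed. They are not independent of it.

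ACO1 (VIT_11s0016g02380), an ACC oxidase of ethylene synthesis used here as a gene that moves with ripening, was uneven over the same vines. The paper had named it, from these same data, for higher values at T1 in F and FH. Its order of F above C at T1 is thus no independent result. It had 29.3, 0.265 and 50.4 CPM in FH, 0.156, 0 and 9.58 CPM in H, 43.5, 51.4 and 15.7 CPM in F, and 0.251, 5.19 and 1.64 CPM in C at T1. FH replicate 2 was thus again the low library of FH, and H replicate 3 the high one of H. HSP101 (VIT_17s0000g07190), a heat shock chaperone, had 271, 2298 and 294 CPM in FH, 1445, 451 and 2355 CPM in H, 406, 236 and 692 CPM in F, and 1021, 1288 and 1160 CPM in C at T1. It was high in FH replicate 2, where the locus was low, and high in H replicate 3, where the locus was high. The part of ripening stage or of these 2 libraries in the differences at T1 was not tested further.

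**Figure D2:**
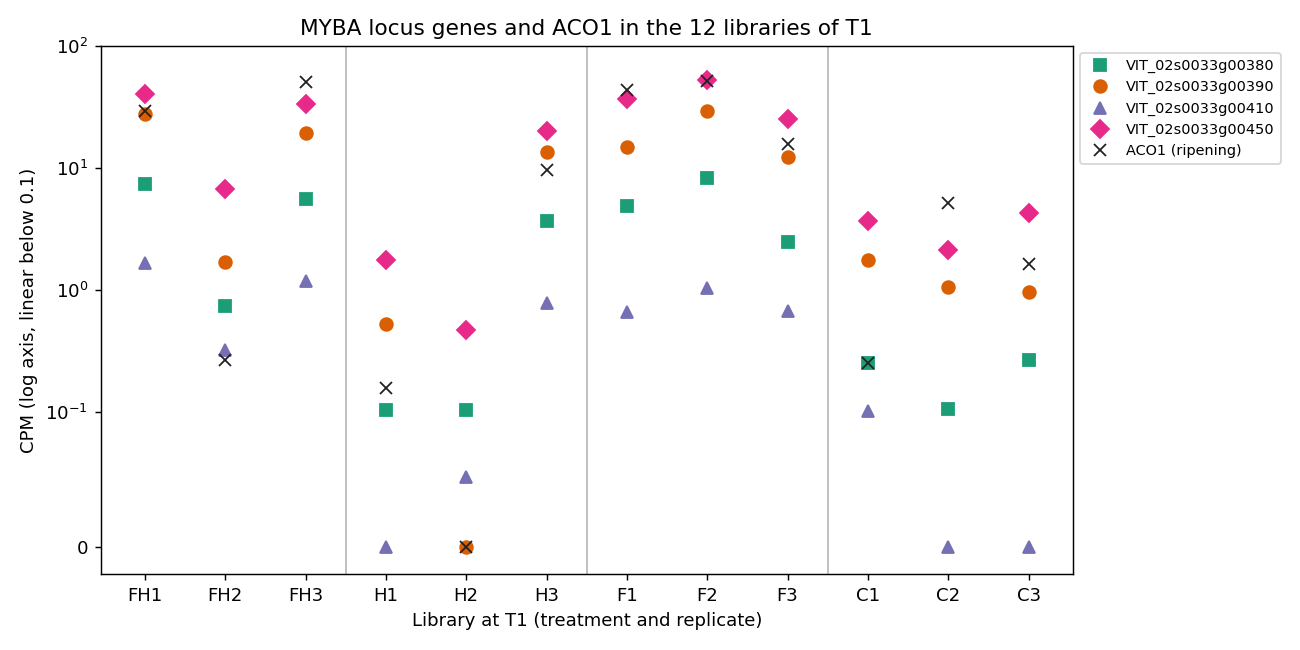
The 4 MYBA locus genes and ACO1 in CPM (log axis, linear below 0.1) in each of the 12 libraries of T1, ordered by treatment and replicate. FH replicate 2 was the lowest of FH and H replicate 3 the highest of H in all 5 genes, and the F libraries lay above the C libraries in all 5. The paper had named ACO1 for higher values at T1 in F and FH.

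Outside T1, spring flooding alone was tied to no called change. F over C called none of the 4 locus genes at T0, T2, T3, T4 and T5 by edgeR or DESeq2 (0 of 20 at an unadjusted p under 0.05), where 0.0102, 0, 0, 0 and 0% of all genes were called in the same order. At T0 the test could not have called g00380, g00390 and g00410, which had 1 count between them in the 6 libraries. Among all genes, 386, 392, 1476, 1750 and 855 had an unadjusted p under 0.05 at these times. At T4 the level was lower in F without overlap in 3 of the 4 genes: g00450 had 26.9, 48.2 and 14.4 CPM in F, against 64.3, 57.1 and 55.2 CPM in C. The fitted change there was -0.98 (SE 0.62, adjusted p = 0.641) for g00450 and -0.88 (SE 0.61, adjusted p = 0.676) for g00380. For comparison, 14.4% of all tested genes had no overlap between F and C at T4. At T5, g00450 was higher in F without overlap, at 59.2, 60.3 and 70.4 CPM in F, against 47.7, 46.0 and 41.5 CPM in C (log2 change 0.49, SE 0.61, not called), and 21.6% of all tested genes had no overlap there.

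Under heat, at T2 and T3, the means of the locus genes were higher in H than in C, but none was called by edgeR or DESeq2. At T2, g00450 had 208, 95.5 and 71.4 CPM in H, against 11.8, 87.4 and 51.0 CPM in C. The change was 1.32 (SE 0.62, adjusted p = 0.135) and was the only one of the 4 with an unadjusted p under 0.05, where 13.6% of all genes were called. At T3, g00450 had 116, 110 and 110 CPM in H, against 43.6, 89.9 and 71.4 CPM in C. H and C did not overlap in g00380, g00390 and g00450 at T3, as in 25.1% of all tested genes, but the changes of 0.55 to 0.72 were not called by edgeR or DESeq2 (0 of 4 at an unadjusted p under 0.05), where 0.168% of all genes were called.

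In vines flooded before, g00450 was likewise higher under heat without a call. At T2 it had 77.9, 160 and 76.8 CPM in FH, against 29.8, 67.7 and 58.3 CPM in F, a change of 1.02 (SE 0.62, adjusted p = 0.35), where 2.84% of all genes were called. At T3 it had 173, 141 and 137 CPM in FH, against 111, 83.2 and 88.6 CPM in F, a change of 0.68 (SE 0.61, adjusted p = 0.601), where 2.91% were called. FH and F did not overlap in g00450 at T2 and T3, as in 25.1% and 15.6% of all tested genes. They overlapped in g00380, g00390 and g00410. For these the change was 0.59, 0.50 and 0.09 at T2 and 0.85, 0.73 and 0.72 at T3, in the same order. No locus gene had an unadjusted p under 0.05 in FH over F at T2 or T3, and DESeq2 called none. FH over H called none at T2 and T3 either (log2 change -0.25 to 0.68, 0 of 8 at an unadjusted p under 0.05), where 0% and 1.3% of all genes were called. In g00450 FH lay above H without overlap at T3, where 23.9% of all tested genes had no overlap. The other locus genes overlapped there. At T2 808 genes had an unadjusted p under 0.05 in FH over H, none of which was a locus gene.

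At T4, FH stood above F in the locus genes, in part through 1 library. FH and F did not overlap in g00380, g00390 and g00450, as in 8.21% of all tested genes, and overlapped in g00410. g00390 had 52.3, 64.4 and 132 CPM in FH, against 29.3, 44.2 and 19.7 CPM in F. g00450 had 55.9, 55.5 and 167 CPM in FH, against 26.9, 48.2 and 14.4 CPM in F. FH replicate 3 was the highest of FH, and F replicate 3 the lowest of F, in all 4 genes. FH over F was 1.42 to 1.64 on the log2 scale, with 4 of 4 at an unadjusted p under 0.05, but none was called by edgeR (adjusted p between 0.325 and 0.473) or DESeq2, where 0.194% of all genes were called. Without FH replicate 3 the change fell to 0.89 for VIT_02s0033g00380, 0.91 for VIT_02s0033g00390, 0.71 for VIT_02s0033g00410 and 0.90 for VIT_02s0033g00450. H over C (0.428% of all genes called) and FH over H (0.0611%) called none of the 4 at T4 by either tool, with 0 of 8 at an unadjusted p under 0.05.

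ACO1 and HSP101 stood apart in another FH library of T4. ACO1 had 77.6, 2.16 and 92.0 CPM in FH, and HSP101 had 336, 2179 and 30.9 CPM. FH replicate 2 was the one with low ACO1 and high HSP101, while its g00390 lay between those of the other FH libraries.

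At harvest, g00380, g00390 and g00410 were lower in H than in C and g00450 was not. g00390 had 40.9, 38.2 and 36.1 CPM in H, against 71.7, 72.9 and 74.4 CPM in C. g00380 had 10.2, 8.0 and 8.04 CPM in H, against 16.5, 16.2 and 18.4 CPM in C. g00450 had 55.4, 55.8 and 47.2 CPM in H, against 47.7, 46.0 and 41.5 CPM in C. H and C did not overlap in the first 3 genes, as in 39.2% of all tested genes, and overlapped in g00450. The change was -0.96 (SE 0.61, adjusted p = 0.292) for g00380, -0.93 (SE 0.68, adjusted p = 0.373) for g00390, -0.85 (SE 0.62, adjusted p = 0.366) for g00410 and 0.23 (SE 0.61, adjusted p = 0.847) for g00450. None was called by edgeR or DESeq2 (0 of 4 at an unadjusted p under 0.05), where 12.3% of all genes were called.

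The call at T5 changed with the libraries fitted. When the 12 libraries of T5 alone were fitted, g00380 (-0.98, adjusted p = 0.00894) and g00390 (-0.94, adjusted p = 0.00676) were called lower in H than in C. In the same fit FH over F called g00380 (-0.65, adjusted p = 0.0412) and g00390 (-0.64, adjusted p = 0.0285) lower. The share of all genes called in this fit was not computed, so these calls cannot be set against it. The fit over all 66 libraries shares 1 spread over all times. The SD of g00390 in C was 81.2% of the mean at T2 and 1.86% at T5. In the other groups of T5 it was 6.2% in H, 17.2% in F and 31.7% in FH. Whether these spreads account for the change in calls was not tested.

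With all libraries, FH over F at T5 was -0.61 for g00380, -0.61 for g00390, -0.29 for g00410 and -0.25 for g00450, and none was called by edgeR or DESeq2 (0 of 4 at an unadjusted p under 0.05), where 13.5% of all genes were called. g00380 had 7.6, 14.5 and 8.58 CPM in FH, against 15.6, 14.8 and 16.5 CPM in F. FH replicate 2 was the highest of FH, just below the lowest F library. FH over H called none at T5 either (log2 change 0.01 to 0.35, 0 of 4 at an unadjusted p under 0.05), where 0% of all genes were called and 2274 had an unadjusted p under 0.05. The interaction of both stresses (the change of FH from F less that of H from C) was called in none of the 4 genes at T1 to T5 by edgeR or DESeq2 (1 of 20 at an unadjusted p under 0.05, g00380 at T1), where 0, 0, 0, 0.0051 and 0.52% of all genes were called. An unadjusted p under 0.05 was found for this difference in 911, 473 and 1695 genes at T1, T2 and T3. The interaction at T1 includes F over C, which was in view when the genes were listed, and is not independent of that choice.

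**Figure D3:**
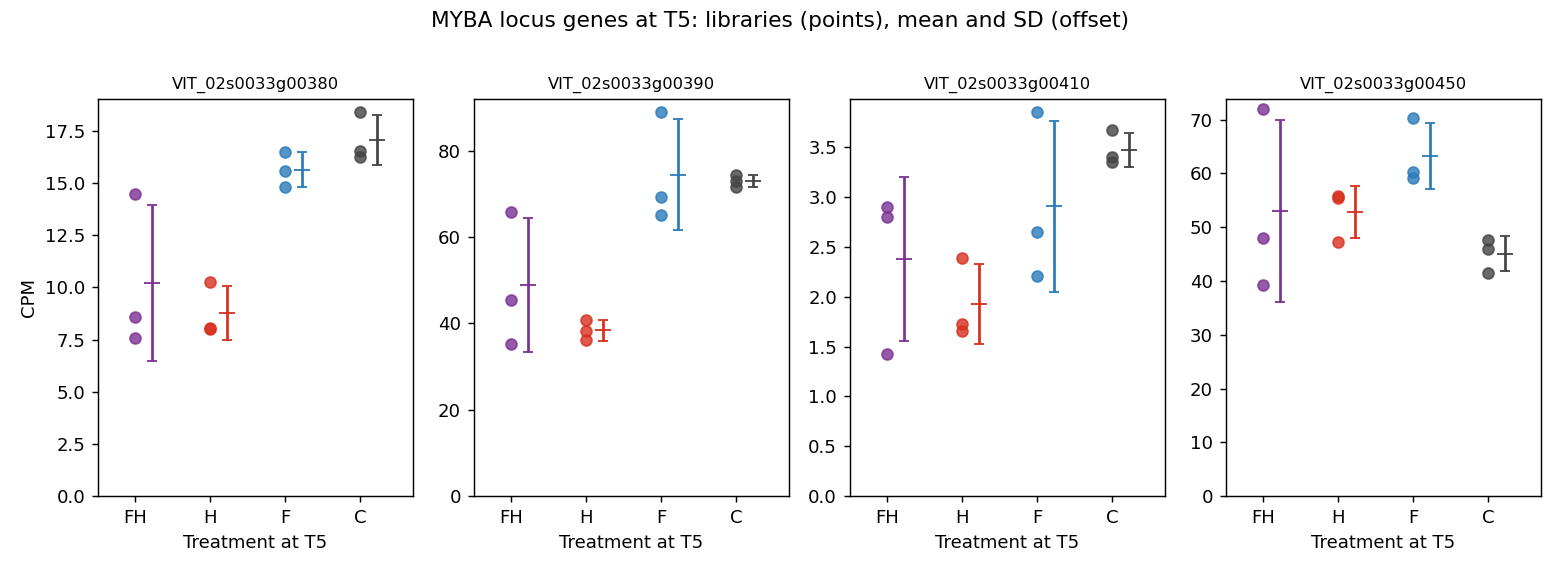
Levels of the 4 MYBA locus genes in CPM at T5 by treatment, with points for libraries and, beside them, the mean and SD of 3. H lay below C in g00380, g00390 and g00410, with 38.4 against 73.0 CPM in g00390, while in g00450 the C libraries were the lower ones on average (52.8 CPM in H and 45.1 CPM in C).

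Within a library, the reads of g00380 varied less relative to those of g00390 than the reads of g00450 did. Over the 48 libraries of T2 to T5, g00380 had 0.185 to 0.282 reads per read of g00390 (median 0.222), with an SD of 0.144 on the log2 scale. g00410 had 0.0268 to 0.0651 reads per read of g00390 (median 0.0467, SD 0.274), on far fewer reads. g00450 had 0.559 to 3.12 reads per read of g00390 (median 1.06, SD 0.429). Such a ratio does not depend on the library's size, and it was looked at after the levels were seen. Reads of 1 member that match another equally well were not counted, so the ratios hold for uniquely matching reads alone.

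The ratio of g00450 to g00390 separated the 4 treatments at harvest. It was 1.11, 1.10 and 1.05 in FH, 1.36, 1.46 and 1.31 in H, 0.855, 0.926 and 0.790 in F, and 0.666, 0.631 and 0.559 in C. No 2 of these groups overlapped, and the order was H, FH, F and C. The first and second F libraries of T5 were much more alike than other replicates (chi-square per degree of freedom 1.87), and are counted here as separate. How many other pairs of genes have a ratio without overlap was not computed. For levels at T5, 39.2% of all tested genes had no overlap in H over C, 43.5% in FH over F and 21.6% in F over C. The summer stress was tied to a ratio 1.68-fold higher (0.75 on the log2 scale, with 1.15 in H over C and 0.34 in FH over F), higher in all 3 stressed libraries of each pair. A two-sided exact permutation test within the pairs gave p = 0.005, the smallest that its 400 rearrangements can give. Adjusted over the 30 tests of 3 genes, 5 times and 2 factors, p was 0.15, so the difference did not pass after adjustment. The ratio moves with either gene, and the mean of g00390 was lower in the stressed vines at T5.

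At T2 and T3 the ratio varied between libraries of the same group. It was 1.54, 1.85 and 0.914 in FH and 2.10, 1.05 and 1.0 in H at T2, against 0.962, 0.928 and 1.11 in F and 1.14, 1.06 and 1.24 in C. At T3, FH replicate 1 had 3100 reads of g00450 and 995 of g00390, a ratio of 3.12, against 0.944 and 0.893 in the other FH libraries. The ratio at T3 was 1.22 to 1.36 in H, 1.62, 1.34 and 1.04 in F, and 1.02 to 1.26 in C, so that an F library lay above all H libraries. HSP101 at T3 was 1817, 418 and 405 CPM in FH and 997, 464 and 19.3 CPM in F. In these groups it was highest in the library with the highest ratio, but not in H and C. HSP101 was 420, 614 and 1152 CPM in H and 527, 58.6 and 157 CPM in C, where replicate 2 of each had the highest ratio. At T2, HSP101 was 1979, 1396 and 497 CPM in FH, where replicate 3 had the lowest ratio too, and 1229, 1237 and 509 CPM in H, where replicates 1 and 2 had like HSP101 and unlike ratios. Among the other ratios, that of g00410 at T2 was 0.747-fold under summer stress (exact permutation p = 0.02) and that of g00380 at T3 was 1.15-fold after flooding (exact permutation p = 0.025), both with an adjusted p of 0.25. The summer stress gave no difference in the ratio of g00450 at T2 (exact permutation p = 0.205), T3 (0.76) or T4 (0.98) that passed its test.

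**Figure D4:**
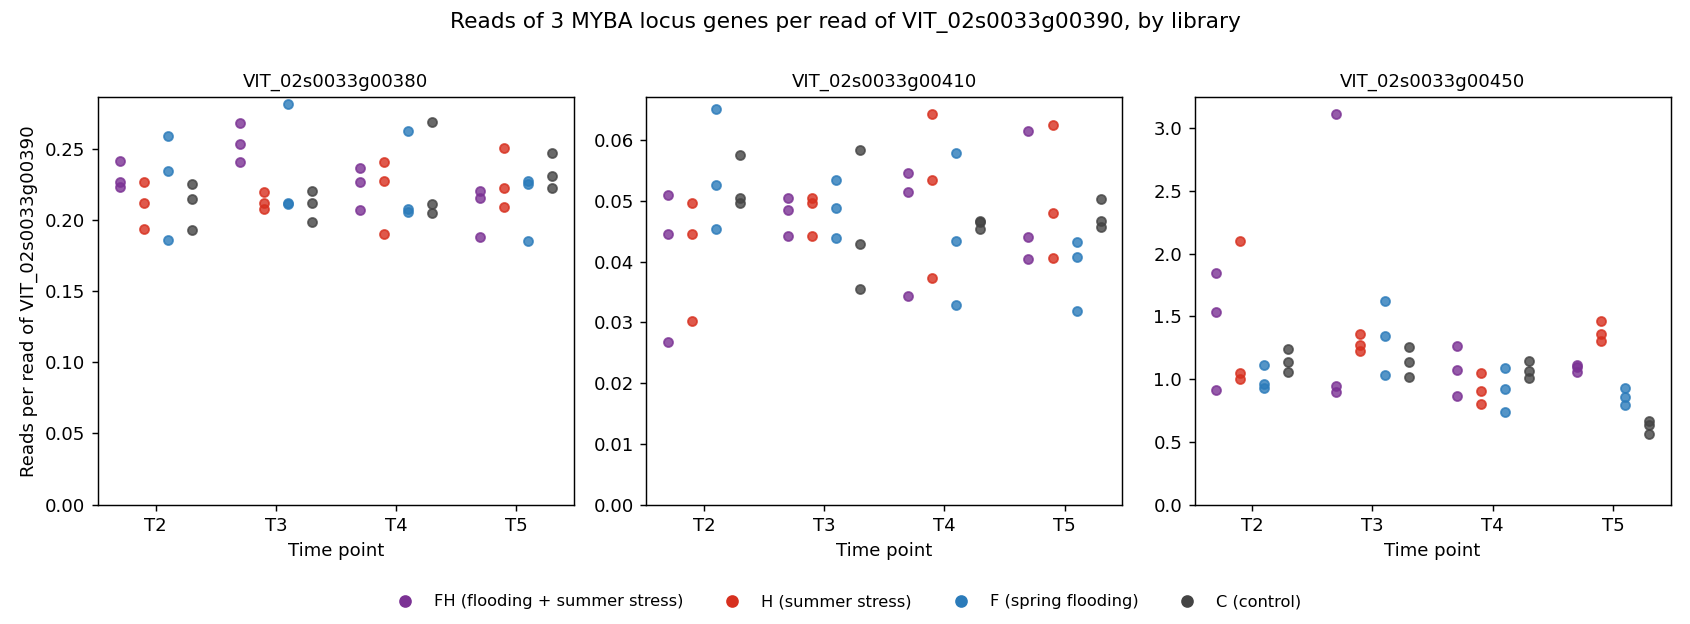
Reads of g00380, g00410 and g00450 per read of g00390 in each library of T2 to T5, by treatment. g00380 stayed between 0.185 and 0.282, while g00450 reached 3.12 in an FH library of T3 and fell into 4 separate groups at T5.

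The pathway genes after the locus were barely detected. UFGT had 140 counts in all 66 libraries together, in 41 of them and with 14 counts at most, or 0.108 CPM (95% exact Poisson interval 0.0912 to 0.128). At T0 it had 0 counts in all 6 libraries, where the floor of 3 counts per library is 0.146 CPM in F and 0.153 CPM in C. Its summed level was 0.247 CPM at T1 (55 counts, 0.186 to 0.322), 0.0810 CPM at T2 (0.0472 to 0.13), 0.143 CPM at T3 (0.0973 to 0.203), 0.0877 CPM at T4 (0.0550 to 0.133) and 0.0555 CPM at T5 (0.0311 to 0.0915). The counting interval of T1 overlapped that of T3 and lay above those of T2, T4 and T5. These intervals cover counting error alone and not the spread between vines, so they do not test a difference between times. The sum at T1 pools the treatments, and within F UFGT had 0.112 CPM at T1 and 0.115 CPM at T2.

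Within T1, UFGT had 2, 8 and 4 counts in FH, 6, 2 and 5 in H, 6, 0 and 0 in F, and 0, 8 and 14 in C. The treatments overlapped, and 2 of the F libraries, whose locus genes were high, had no UFGT count. At T5 it had 0 counts in all FH libraries, 3, 2 and 3 in H, 4, 0 and 0 in F, and 2, 1 and 0 in C. These counts are too few for a comparison of treatments at this depth. UFGT did not pass the filter on low counts. Without the filter it was called in T1 over T0 of C (adjusted p = 0.0106) and, in the other direction, in T5 over T1 of FH (adjusted p = 0.00986), on 22 counts or fewer in each group.

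GST4 had 11 counts in all, in 6 of the 66 libraries. These were 3 counts in an H library of T1, 3 in an FH library of T3, 2 in an H library of T4, and 1 each in an FH, an H and an F library of T5. None of the C libraries had a count. At this depth GST4 could not be compared between groups.

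**Figure D5:**
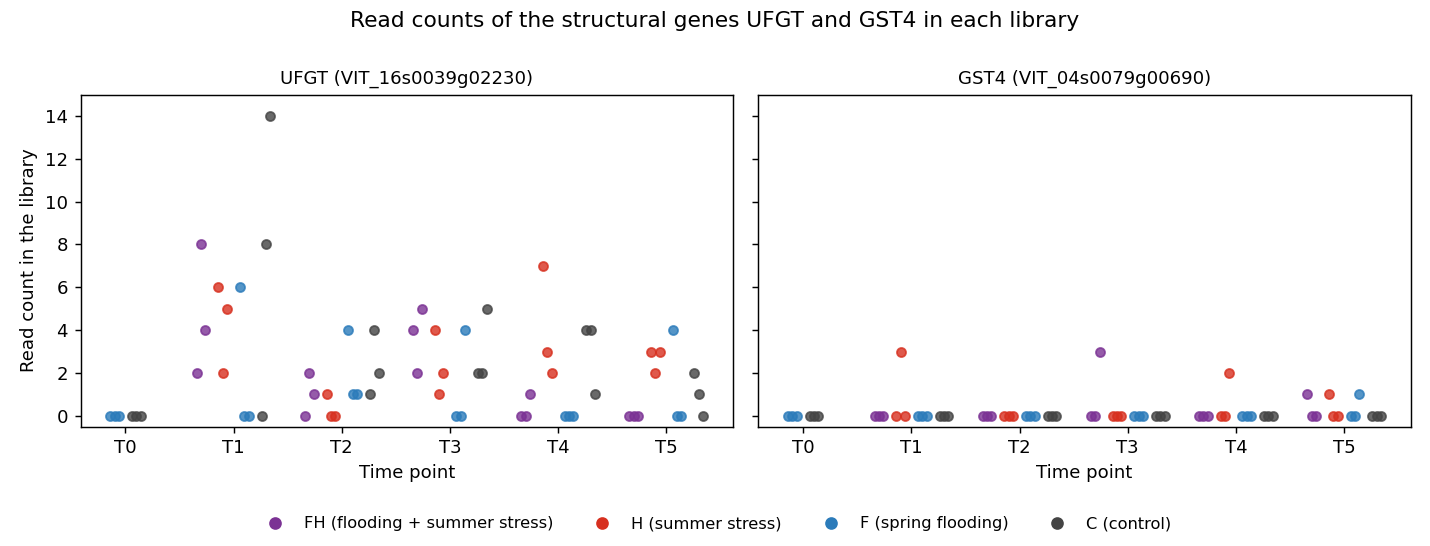
Read counts of UFGT and GST4 in each library at T0 to T5, by treatment, on linear axes. UFGT had at most 14 counts and 0 at T0, and GST4 at most 3, with no count in any C library.

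The rise was not shared by every gene ID between the locus members. The table has 10 rows by number between VIT_02s0033g00370 and VIT_02s0033g00460, of which 6 are no members. VIT_02s0033g00400, VIT_02s0033g00430 and VIT_02s0033g00440, which lie between members, had 0 counts in all 66 libraries. As only uniquely matching reads were counted, a silent gene and one whose reads match elsewhere too cannot be told apart in these rows. VIT_02s0033g00420, between g00410 and g00450, had 12 to 75 counts in every library and averaged 1.49 CPM at T0, 2.66 CPM at T1 and 1.30 CPM at T5. VIT_02s0033g00370, outside the members, had at most 7 counts, and averaged 0.00843 CPM at T0, 0.0735 CPM at T2 and 0.126 CPM at T3. It thus rose too, at a very low level. VIT_02s0033g00460 had at most 1 count. Of the rows in this stretch, the 4 members were thus those with more than 75 counts in any library.

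Over the 22 group means of log2(CPM + 0.5), the pattern most like that of g00380 was that of g00390 (Pearson's r = 0.994), out of 16230 gene rows with a mean of at least 1 CPM. g00410 (0.988) and VIT_07s0005g00750 (0.983) came next for g00380. For g00390 the closest were g00380, VIT_10s0116g00370 (0.987) and VIT_19s0177g00230 (0.986), with g00450 in place 4. For g00410 they were g00380, VIT_03s0038g01380 (0.977) and VIT_07s0005g00750 (0.977). For g00450 they were g00390 (0.986), VIT_02s0025g04300 (0.985) and VIT_13s0019g03220 (0.985). g00380 was thus the nearest pattern of both g00390 and g00410, while g00410 was in place 15 for g00390 (0.974) and in place 67 for g00450 (0.951). All patterns share the large change between T0 and T2 and the same libraries, and the values are a description. VIT_02s0025g04300, for one, averaged 0.566 CPM at T0, 459 CPM at T1 and 3417 CPM at T2.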

How the data were processed

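As deposited by the authors, the values are raw read counts per gene row. Per the paper, single-end reads from a stranded library were mapped by TopHat onto a revised 12X Pinot Noir genome and only uniquely mapping reads were kept. The sources differ on trimming (none, or Trimmomatic 0.39) and on the counting tool (Bedtools coverage or featureCounts), and versions of the aligner and counter are not stated there. Unique mapping leaves out reads shared by near-identical locus genes.

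The main test was edgeR 4.0.16 under R 4.3.3 (robust quasi-likelihood fit after TMM, common dispersion 0.0765) in 1 model of 22 group means over 66 libraries, and with DESeq2 1.42.0 as an alternative. The filter kept rows that reached 0.5 CPM in 3 libraries or more. A call needs an adjusted p under 0.05 (Benjamini-Hochberg over all rows tested) and a 1.5-fold change. Other alternatives were RLE normalization, no filter, a replicate block, separate fits to the time points of a contrast, and each library left out, with the gene set and dispersions kept. CPM use TMM-scaled library sizes. Ratios within a library used log2 of counts plus 0.5 and exact permutation within the pairs (FH, F) and (H, C), or (FH, H) and (F, C).

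The members and lists were chosen with earlier results of these data known. Named beside the 7 members are the gene IDs next to the locus, the 3 genes most like each tested member, ACO1 and HSP101. None of the IDs was found in the reference (0 of its 29591 rows), so genes are given by ID, no coordinates or sequences are printed, and a list of other pathway genes was left out. Rows that share an ID (300 rows, 149 IDs) were kept apart.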

Additional observations from a re-analysis of the deposited data

Results flagged for a closer look

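The levels and ratios of the locus genes were screened at T1 to T5 for opposite directions without overlap, by spring flooding and by summer stress. One result was kept, in a ratio chosen after the levels were seen. Its direction was opposite in the 2 pairs of groups that differ by spring flooding. How often such a result arises among other genes was not computed. At T5 the log2 ratio of g00450 to g00390 was higher in F than in C (0.47), and every F library lay above every C library. Of these F libraries, the first and second were much more alike than other replicates. The ratio was lower in FH than in H (-0.34), and every FH library lay below every H library. The second difference minus the first was -0.81. The difference between these effects was not tested.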

How the results depend on the processing

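The replicate numbers did not pair the libraries: deviations from group means correlated with a median r of -0.003 over 93 pairs with the same number and 0.0214 over 186 other pairs. The replicate block changed no call, with 22 calls of 32 in the time steps as without it. RLE normalization changed no call of the 4 locus genes either. With separate fits to the time points of each contrast, H over C gave 2 calls and FH over F 2, against 0 each with all libraries, and F over C at T0 gave no value since its genes were filtered out; fewer samples were fitted. With DESeq2, H over C gave 1 call and the time steps 24. Leaving out each library in turn, FH over H gave 0 to 4 calls, the time steps 22 to 23, and F over C, H over C, FH over F and the difference of FH over F and H over C 0. The share of all genes called was not computed for the separate fits or with a library left out. Without H replicate 3, H over C at T1 reversed for VIT_02s0033g00380 (-0.96 to 3.12 over all libraries left out). The ratio of g00450 to g00390 under summer stress at T5 stayed at 0.71 to 0.78 on the log2 scale without each library of T5, an alternative chosen after seeing the data. With log2(CPM + 4), the pattern most like that of g00450 was VIT_15s0048g01920 (0.983). The first and second F libraries of T5 were much more alike than other replicates (chi-square per degree of freedom 1.87, the next 8.95) and were kept as separate libraries. Depth limits UFGT and GST4 to counts.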
